A study of Bos taurus with 9 samples.

Results

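The mature miRNAs bta-miR-375, bta-miR-7, bta-miR-153 and bta-miR-9-5p, known from endocrine and nerve cells, were described in bovine rectal tissue. They were picked by name, and all 4 were found among the 515 miRNA rows of the deposited table and in all 9 small RNA libraries. The tissue came from beef steers, 1 library per animal. The 5 super-shedders (SS) were defined by feces with more than 10000 colony-forming units of E. coli O157 in each g, and the 4 non-shedders (NS) were pen-mates negative for it. No steer received an experimental treatment, the animals came from 1 crossbred feedlot population on a shared finishing diet, and no source used here gives their age. The SS were natural shedders identified days before slaughter, and not all of them still shed above this level when the tissue was taken. Each sample was whole rectal wall (2 biopsies of 2 square cm, taken 3 to 5 cm proximal to the anal junction), so mucosa, muscle and nerve were sequenced together.

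A miRNA is a short RNA that guides a silencing complex to matching mRNAs and lowers their translation or stability. The names of these 4 miRNAs are tied to hormone and transmitter secretion. In mammals miR-375 is abundant in pancreatic islets, where it restrains insulin release, and in the mouse gut it is enriched in the hormone-secreting enteroendocrine cells of the epithelium. Like miR-375, miR-7 is enriched in islet and other neuroendocrine cells, and in mouse and human brain it is bound by the circular RNA Cdr1as. A regulator of vesicle release, miR-153 is encoded inside genes for membrane proteins of secretory granules. In contrast, miR-9 is a miRNA of neural progenitors and neurons, and in human monocytes it is induced by bacterial products.

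The bovine gene table of RefSeq (assembly ARS-UCD2.0), used here for names and gene order only, lists 1 gene for miR-375 and 2 each for miR-7, miR-153 and miR-9. The genes MIR153-1 and MIR153-2 lie within PTPRN and PTPRN2, which encode proteins of dense-core secretory vesicles. MIR7-2 lies within HNRNPK, which encodes a widely expressed RNA-binding protein, and MIR9-2 within a long non-coding RNA. MIR375 lies between CRYBA2 and CFAP65, on the same chromosome as MIR153-1 and with 17 protein-coding genes between them. The table of values has 1 row per mature miRNA, so reads from the separate copies of miR-7, miR-153 or miR-9 were not told apart.

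The libraries held totals of 650726 to 6314556 reads, with 1486495 to 6314556 in SS and 650726 to 2316164 in NS, so that 1 read was worth 0.158 to 1.54 CPM, a count scaled to the library total. The miRNA lists named for cell types took widely different shares of the libraries. How far these shares follow tissue composition was not tested. The intestinal epithelium list held 8 miRNAs (miR-192, miR-194, miR-215 and the miR-200 family). Summed, they took 2.36% to 12.3% of a library in NS and 0.414% to 39.6% in SS. The lowest of these sums were those of SS steer 274, SS steer 310 (1.83%) and NS steer 242. The 6 smooth muscle miRNAs took 30.6% to 62.8% in NS and 22.2% to 73.7% in SS. Most of this was bta-miR-143, with means of 485245 CPM in NS and 531421 CPM in SS. The 8 leukocyte miRNAs took 4.47% of NS steer 242, 0.380% to 0.618% of the other 3 NS libraries and 0.0691% to 2.04% in SS. Of these 8, 7 had a negative log2 difference between SS and NS with a median of -1.13, or -0.44 relative to the median miRNA, and 0 were called. Over the 245 miRNAs tested 88.2% were negative, so 7 of 8 was near the background. Without NS steer 242, 5 of the 8 leukocyte miRNAs were negative with a median of -0.48. Of all tested miRNAs 82.1% were then negative, with a median of -0.53. SS steer 274 and NS steer 242 also had the lowest mean level of the epithelium list relative to the median miRNA, 1.21 and 1.76 on the log2 scale against 3.59 to 5.62 in the other 7 libraries. For these reasons results are also given below without those libraries.

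The most abundant of the 4 was bta-miR-375. In NS it was measured at 12199 CPM in steer 108, 10748 CPM in steer 152, 10657 CPM in steer 165 and 1687 CPM in steer 242. In SS the values were 132 CPM in steer 274, 13775 CPM in steer 287, 5454 CPM in steer 294, 5760 CPM in steer 299 and 1282 CPM in steer 310. Thus 3 of the 4 NS animals lay close together, while SS held both the highest and the lowest library and the groups overlapped. It ranked 12th to 92nd in abundance among the miRNAs of a library, with the best place in SS steer 287 and the worst in SS steer 274. The highest library was 104-fold above the lowest, and these values rest on 586 to 37339 reads, so that counting error was small beside the spread between animals (a coefficient of variation of 75.1% over the 9 libraries against 1.80% from counting).

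For bta-miR-7 the NS libraries held 26.1 CPM in steer 108, 24.1 CPM in steer 152, 27.2 CPM in steer 165 and 11.2 CPM in steer 242. The SS libraries held 8.34 CPM in steer 274, 94.4 CPM in steer 287, 33.0 CPM in steer 294, 21.6 CPM in steer 299 and 5.70 CPM in steer 310. SS steer 287 was again the highest, at 16.6-fold the level of the lowest library, SS steer 310. Each value came from 10 to 256 reads. When the libraries were put in order, 7 of the 8 neighbouring pairs had overlapping 95% Clopper-Pearson intervals of the read share, and only SS steer 287 (83.2 to 106.8 CPM) was separated from its neighbour.

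The least abundant was bta-miR-153. It reached 13.8 CPM in NS steer 108, 13.9 CPM in NS steer 152, 15.1 CPM in NS steer 165 and 7.81 CPM in NS steer 242. In SS it was at 1.13 CPM in steer 274, 62.0 CPM in steer 287, 21.5 CPM in steer 294, 7.83 CPM in steer 299 and 3.64 CPM in steer 310. The order of the animals was close to that of bta-miR-7, with steer 287 at the top and steers 274 and 310 at the bottom, and the groups overlapped. The NS spread, a coefficient of variation of 26.0%, was no larger than the 28.3% that counting alone gives, since these libraries held 7 to 35 reads of it. In SS steer 274 it rested on 5 reads, with an interval of 0.366 to 2.63 CPM.

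The neural bta-miR-9-5p had another pattern. It was at 63.0 CPM in NS steer 108, 58.5 CPM in NS steer 152, 41.4 CPM in NS steer 165 and 98.1 CPM in NS steer 242. SS steer 274 held 49.1 CPM, SS steer 287 64.6 CPM, SS steer 294 90.8 CPM, SS steer 299 52.9 CPM and SS steer 310 15.4 CPM. NS steer 242, low for the other 3 miRNAs, was the highest here, and 4 of the 5 SS libraries lay within the NS range. The other arm of the hairpin, bta-miR-9-3p, was rare, with 19 reads in all against 1128 for the 5p arm, or 1.66% of both (95% Clopper-Pearson interval 1.0% to 2.57%). It had no read in NS steers 108 and 242, where a limit of 3 reads is worth 4.61 and 3.35 CPM. Intervals and limits here cover counting error only.

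**Figure D1:**
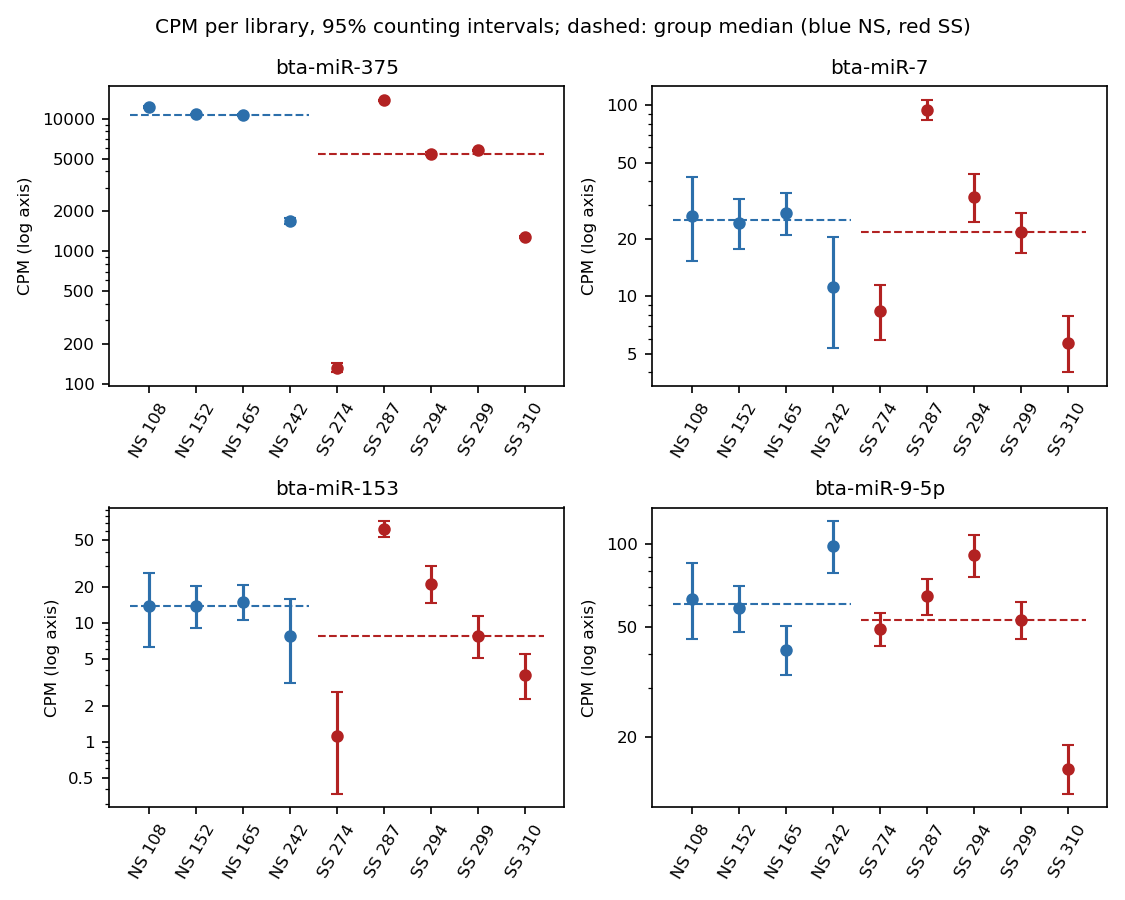
CPM (log axis) of each miRNA in each of the 9 libraries, NS in blue and SS in red, with 95% Clopper-Pearson counting intervals and the group median as a dashed line. Steer 287 is the highest library for bta-miR-375, bta-miR-7 and bta-miR-153 (13775, 94.4 and 62.0 CPM), while bta-miR-9-5p is highest in NS steer 242 at 98.1 CPM.

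Within a library the order of the 4 was nearly fixed. In 8 of the 9 libraries bta-miR-375 was followed by bta-miR-9-5p, bta-miR-7 and bta-miR-153. The exception was SS steer 287, where bta-miR-7 came second and bta-miR-9-5p (64.6 CPM) and bta-miR-153 (62.0 CPM) had overlapping intervals. Of the 8 libraries in which bta-miR-7 and bta-miR-153 were neighbours, their intervals overlapped in 6, all but SS steers 274 and 299. In NS steer 165 the intervals of bta-miR-9-5p and bta-miR-7 overlapped as well. The interval of the ratio of bta-miR-7 to bta-miR-9-5p there (0.470 to 0.911) excluded equal reads. Levels are reads per miRNA of similar length with no correction for how well each is ligated and copied, so the distances between them are those of the libraries.

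Relative to the median of the tested miRNAs in the same library, bta-miR-375 stood among the most variable miRNAs and bta-miR-9-5p among the steadiest. Tested miRNAs are those with at least 5 CPM in at least 4 libraries, 245 in all, the 4 included. On the log2(CPM + 1) scale the SD of bta-miR-375 about this median was 1.96 over the 9 libraries, the 7th largest of the 245, against 0.66 for the median miRNA. It was 1.11 for bta-miR-153 (49th) and 0.98 for bta-miR-7 (66th). For bta-miR-9-5p it was 0.34 (225th), and its level lay 1.30 below the library median in SS steer 310, 0 in SS steer 274 and 0.58 to 0.88 below it in the other 7 libraries. In NS the 4 values of bta-miR-9-5p on this scale lay from -0.88 to -0.71, while those of bta-miR-375 lay from 3.21 to 7.20. In SS steer 274 bta-miR-9-5p was itself the median miRNA, hence its value of 0. With the deposited values, not taken relative to the median, the SD of bta-miR-9-5p was 0.76 (169th), against 0.91 for the median miRNA. That of bta-miR-375 was 2.20 (8th). The steadiness of bta-miR-9-5p thus depended in part on the reference.

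Likeness between miRNAs was measured as Pearson's r of these median-relative values over the 9 libraries. The 5 nearest of the other 244 to bta-miR-375 were bta-miR-182 (r = 0.956), bta-miR-429 (r = 0.956), bta-miR-200a (r = 0.956), bta-miR-200c (r = 0.946) and bta-miR-183 (r = 0.927). Of these bta-miR-182 and bta-miR-183 belong to a cluster first known from sensory cells and also found in endocrine cells, and the other 3 to the miR-200 family, which maintains the epithelial state by repressing ZEB factors. For bta-miR-7 the nearest was bta-miR-153 (r = 0.878), followed by bta-miR-2310 (r = 0.859), bta-miR-141 (r = 0.846), bta-miR-652 (r = 0.801) and bta-miR-200a (r = 0.779). For bta-miR-153 they were bta-miR-141 (r = 0.980), bta-miR-200a (r = 0.915), bta-miR-652 (r = 0.896), the enterocyte bta-miR-192 (r = 0.880) and, in 5th place, bta-miR-7. In the order of likeness to bta-miR-375, bta-miR-153 came 10th (r = 0.823) and bta-miR-7 25th (r = 0.655). Without SS steer 274 and NS steer 242 (7 libraries, chosen after seeing the data), bta-miR-153 was still nearest to bta-miR-7 (r = 0.939) and bta-miR-141 to bta-miR-153 (r = 0.976). The likeness to bta-miR-375 was then 0.869 for bta-miR-200c and 0.748 for bta-miR-182, but 0.387 for bta-miR-183. It was 0.637 for bta-miR-7 (35th) and 0.498 for bta-miR-153 (54th), so those 2 changed order. With NS steer 242 and SS steer 287 left out instead (7 libraries), r between bta-miR-7 and bta-miR-153 was 0.683. Those were the 2 libraries farthest from the median of the bta-miR-7 values. The closeness of bta-miR-7 and bta-miR-153 thus depended in part on which libraries were kept. The points share library, depth and the scaling by the median.

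No miRNA was close to bta-miR-9-5p in this way. Its nearest was bta-miR-2898 (r = 0.557, Spearman's rho = 0.117), then bta-miR-484 (r = 0.494), bta-miR-708 (r = 0.478), the endothelial bta-miR-126-3p (r = 0.470) and bta-miR-454 (r = 0.441). None of these 5 is on the list of nervous system miRNAs used below, and bta-miR-375, bta-miR-7 and bta-miR-153 came 203rd, 83rd and 166th. With the deposited values, not taken relative to the median, bta-miR-2898 and bta-miR-484 reached r = 0.895 and r = 0.880 with it. Without SS steer 274 and NS steer 242, r with bta-miR-708, bta-miR-126-3p and bta-miR-454 turned negative (-0.44, -0.24 and -0.21).

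The 4 miRNAs were then compared with the epithelium and smooth muscle lists across the 9 animals, 8 relations in all. The secretory bta-miR-153 varied with the epithelium list (Pearson's r = 0.877, exact permutation p = 0.000322, BH-adjusted p = 0.00258; Spearman's rho = 0.933, exact permutation p = 0.000750, BH-adjusted p = 0.00600). For bta-miR-375 r was 0.914 (exact permutation p = 0.00221, BH-adjusted p = 0.00885) and rho was 0.767 (exact permutation p = 0.0214, BH-adjusted p = 0.0680). For bta-miR-7 r was 0.723 (exact permutation p = 0.0209, BH-adjusted p = 0.0559) and rho 0.750 (exact permutation p = 0.0255, BH-adjusted p = 0.0680), so neither passed after adjustment, and without NS steer 242 its r was 0.57 (exact permutation p = 0.149). The relations rest in part on SS steer 274 and NS steer 242. Without those 2 libraries r was 0.661 for bta-miR-153 (exact permutation p = 0.0929, n = 7), 0.509 for bta-miR-375 (exact permutation p = 0.228, n = 7) and 0.610 for bta-miR-7 (exact permutation p = 0.146, n = 7), still positive but no longer past 0.05.

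For bta-miR-9-5p the relation with the epithelium list did not pass (r = -0.319, exact permutation p = 0.394, BH-adjusted p = 0.788; rho = 0.10, exact permutation p = 0.810, BH-adjusted p = 0.810), and r was 0.642 without the same 2 libraries (exact permutation p = 0.109, n = 7). None of the 4 passed with the smooth muscle list. The r values were -0.171 for bta-miR-375 (exact permutation p = 0.673), 0.111 for bta-miR-7 (exact permutation p = 0.792), -0.197 for bta-miR-153 (exact permutation p = 0.616) and 0.130 for bta-miR-9-5p (exact permutation p = 0.765), each with a BH-adjusted p of 0.792. The rho values were -0.217, -0.117, -0.467 and 0.10 in the same order (exact permutation p = 0.581, 0.776, 0.213 and 0.810, BH-adjusted p = 0.810, 0.810, 0.425 and 0.810). Without SS steer 294 and NS steer 242, the 2 farthest from the median of that list, r was -0.820 for bta-miR-375 (exact permutation p = 0.00853, n = 7), -0.791 for bta-miR-153 (exact permutation p = 0.0292, n = 7), -0.731 for bta-miR-7 (exact permutation p = 0.0528, n = 7) and 0.224 for bta-miR-9-5p (exact permutation p = 0.670, n = 7).

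**Figure D2:**
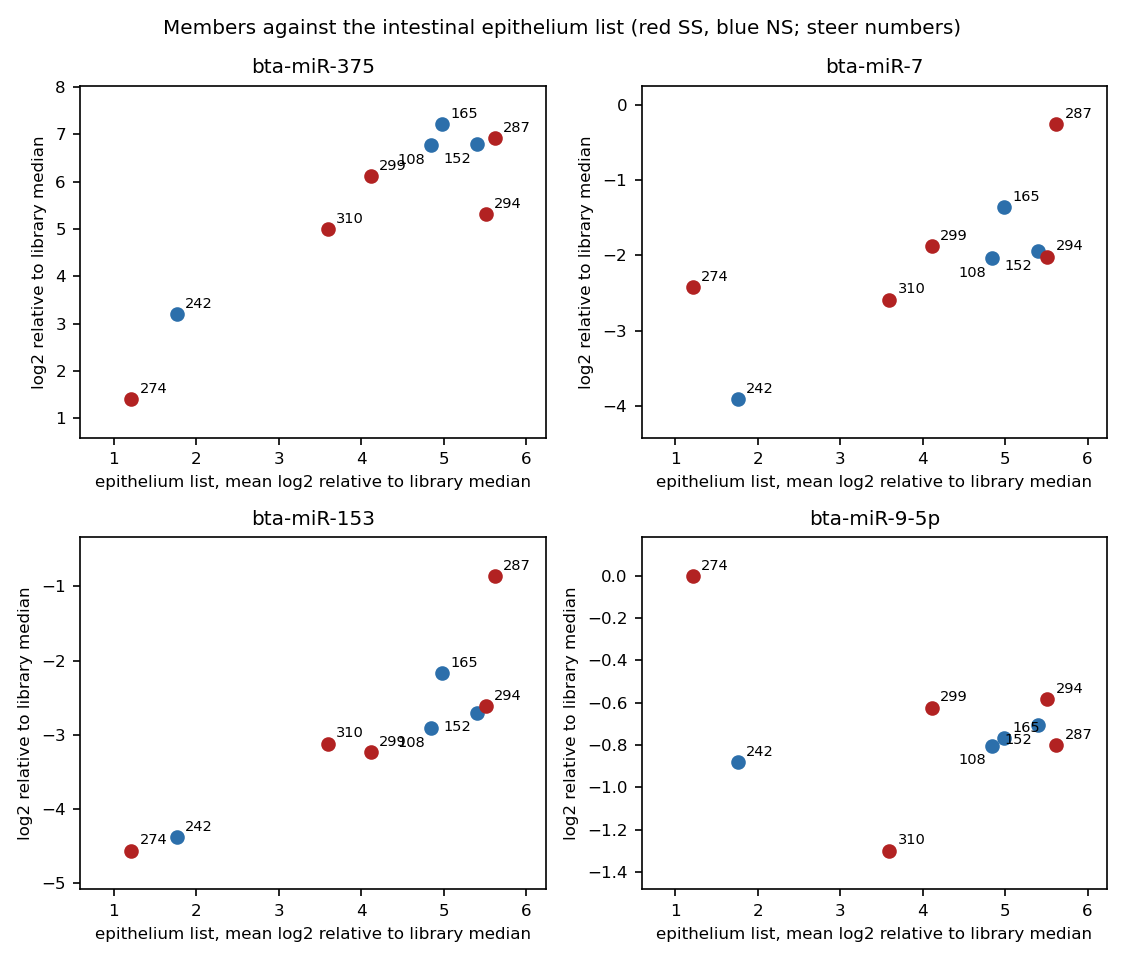
Level of each miRNA (vertical axis) against the mean of the 8 epithelium list miRNAs (horizontal axis), both as log2(CPM + 1) minus the library median, 1 point per animal with its steer number, SS in red and NS in blue. The points rise from left to right for bta-miR-375, bta-miR-7 and bta-miR-153, with steers 274 and 242 at the far left, and not for bta-miR-9-5p (r = -0.319).

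Ratios of 2 miRNAs within a library do not depend on how libraries are scaled. The ratio of bta-miR-375 to bta-miR-153 was 882 in NS steer 108, 771 in NS steer 152, 705 in NS steer 165 and 216 in NS steer 242. In SS it was 117 in steer 274, 222 in steer 287, 253 in steer 294, 736 in steer 299 and 352 in steer 310, so it spanned 7.53-fold although bta-miR-375 itself spanned 104-fold. The ratio of bta-miR-375 to bta-miR-7 was 467 in NS steer 108, 445 in NS steer 152, 392 in NS steer 165 and 151 in NS steer 242. It was 15.8 in SS steer 274 (interval from counting 11.4 to 22.7), far under the 146 to 266 of the other 4 SS libraries. In that animal bta-miR-375 was at its lowest of the 9, while the interval of bta-miR-7 overlapped that of SS steer 310. NS steers 108, 152 and 165 were above all 5 SS libraries in the ratio to bta-miR-7. In the ratio to bta-miR-153 they were above 4 of the 5, with intervals that began at 464, 526 and 507. The intervals of SS steers 299 (498 to 1137) and 310 (234 to 556) overlapped those of all 3 NS libraries. Overlap of separate intervals is not a test of a difference, so it does not settle whether counting tells these libraries apart. In the ratio to bta-miR-7 the interval of SS steer 299 (210.5 to 342.7) also overlapped those of these 3 NS libraries, which began at 291.5, 332.6 and 306.1. That of SS steer 310 (162.3 to 321.4) overlapped those of NS steers 108 and 165. NS steer 242 lay among the SS libraries in both. These ratios were examined with the values in view and not tested.

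By its range over the 9 libraries, 5.18-fold, the ratio of bta-miR-7 to bta-miR-153 was the narrowest of the 6, although within SS its SD on the log2 scale (0.99) was close to that of bta-miR-375 to bta-miR-153 (0.97). It was 1.43 to 1.89 in the 4 NS libraries and 1.52, 1.53 and 1.57 in SS steers 287, 294 and 310. The other 2 SS libraries were higher, at 2.76 in steer 299 (interval 1.72 to 4.55) and 7.40 in steer 274 (interval 2.90 to 24.1, from 37 and 5 reads). More reads were counted for bta-miR-7 than for bta-miR-153 in 9 of 9 libraries. Against bta-miR-9-5p the ratios spread more, 95.7-fold for bta-miR-375, 41.9-fold for bta-miR-153 and 12.9-fold for bta-miR-7.

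**Figure D3:**
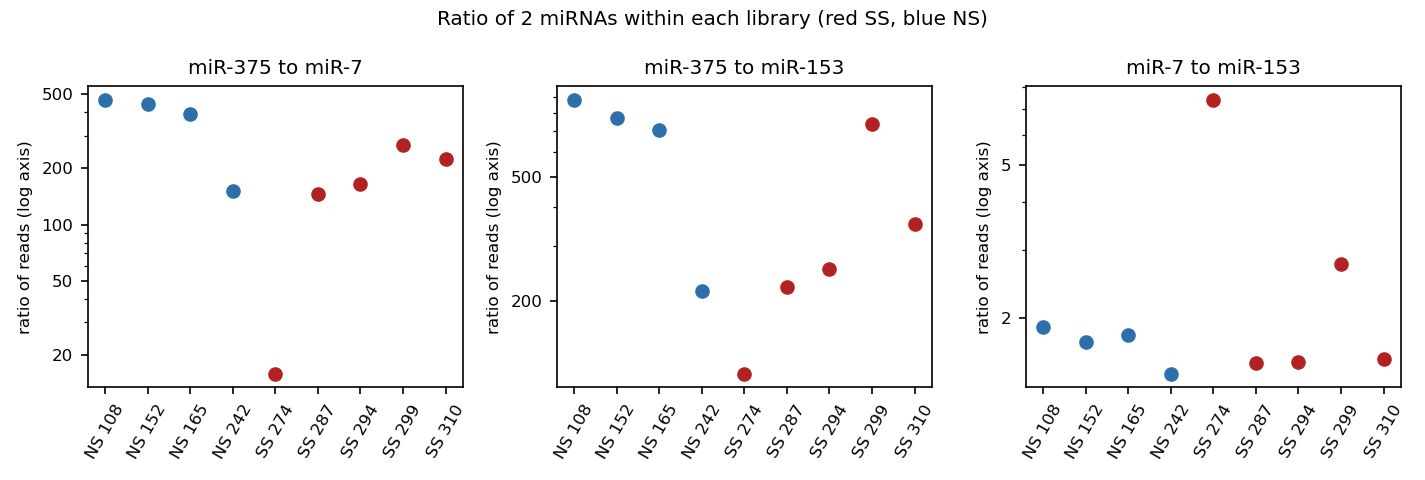
Ratio of reads of 2 miRNAs within each library (log axis), NS in blue and SS in red, 1 point per animal. The ratio of bta-miR-7 to bta-miR-153 stays at 1.43 to 2.76 in 8 libraries and is 7.40 in SS steer 274, where the ratio of bta-miR-375 to bta-miR-7 is lowest at 15.8.

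Between the shedding groups, none of the 4 miRNAs differed by more than the spread between animals. With calls set at an adjusted p under 0.1 together with a log2 difference beyond 1 either way, limma called 0 of the 4 and 0.0% of the 245 tested. At an unadjusted p under 0.05 it found 0 of the 4 and 16.3% of the 245, and the groups failed to overlap for 0 of the 4 and 6.53% of the 245. On reads recovered from the values, edgeR's quasi-likelihood test called 0 of the 4 (0.0% of the 245, 10.6% at an unadjusted p under 0.05), its exact test 0 of the 4 (0.408% of the 245, 10.2% at that unadjusted p) and DESeq2 0 of the 4 (3.67% of the 245, 13.9% at that unadjusted p), with 0 of the 4 at an unadjusted p under 0.05 in any of them. Whether an abundance differs because there are fewer cells of a type or less RNA per cell cannot be told apart in whole tissue.

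The islet and enteroendocrine bta-miR-375 averaged 5281 ± 5360 CPM over the SS animals (SD, n = 5), compared with 8823 ± 4809 CPM over the NS animals (SD, n = 4). Its log2 difference, SS minus NS, was -1.56 (SE 1.17, 95% interval -4.13 to 1.01, limma adjusted p = 0.446, exact permutation p = 0.341). Of the SS libraries 2 lay below all of NS, 1 above and 2 within its range. Without SS steer 274 the difference was -0.52, and without NS steer 242 it was -2.24. Without both it was -1.20 (limma adjusted p = 0.747).

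The mean of bta-miR-7 was 32.6 ± 36.3 CPM over SS animals (SD, n = 5) against 22.2 ± 7.44 CPM over NS animals (SD, n = 4), and its log2 difference was -0.03 (SE 0.73, 95% interval -1.63 to 1.57, limma adjusted p = 0.981, exact permutation p = 0.976). The arithmetic mean was higher in SS through steer 287, while the log2 difference was close to 0. The SS animals averaged 19.2 ± 25.2 CPM of bta-miR-153 (SD, n = 5) and the NS animals 12.7 ± 3.30 CPM (SD, n = 4), for a log2 difference of -0.35 (SE 0.85, 95% interval -2.20 to 1.5, limma adjusted p = 0.788, exact permutation p = 0.770). Without SS steer 287 this became -1.0 (limma adjusted p = 0.317), and without SS steer 274 it turned to 0.22 (limma adjusted p = 0.851). Finally, bta-miR-9-5p was present at 54.6 ± 27.3 CPM across SS (SD, n = 5) and 65.3 ± 23.8 CPM across NS (SD, n = 4), and the log2 difference was -0.39 (SE 0.55, 95% interval -1.59 to 0.82, limma adjusted p = 0.647, exact permutation p = 0.571).

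Except for bta-miR-375, the direction of these differences depended on the scaling. With the deposited values the median miRNA had a log2 difference of -0.70, and 88.2% of the 245 had a negative one, 4 of the 4 described here among them. With TMM factors, which align the bulk of the miRNAs between libraries, 51.8% of the 245 were negative, and of the 4 only bta-miR-375. In DESeq2 47.8% of the 245 were negative, and again only bta-miR-375 of the 4. Relative to the median miRNA the differences were -0.86 for bta-miR-375, 0.66 for bta-miR-7, 0.34 for bta-miR-153 and 0.31 for bta-miR-9-5p. Without SS steer 274 the relative value of bta-miR-375 turned to 0.085, and without NS steer 242 it was -1.71. That of bta-miR-153 turned to -0.13 without SS steer 287 and to -0.022 without NS steer 242. The TMM-scaled difference of bta-miR-9-5p was 0.29 with an SE of 0.29, a narrower error than with the deposited values, and that of bta-miR-375 was -0.87 with an SE of 1.18. Relative to the epithelium list of the same library, the differences were -0.81 for bta-miR-375 (SE 0.98, limma adjusted p = 0.998), while bta-miR-153 was at 0.40 (SE 1.07, limma adjusted p = 0.998).

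**Figure D4:**
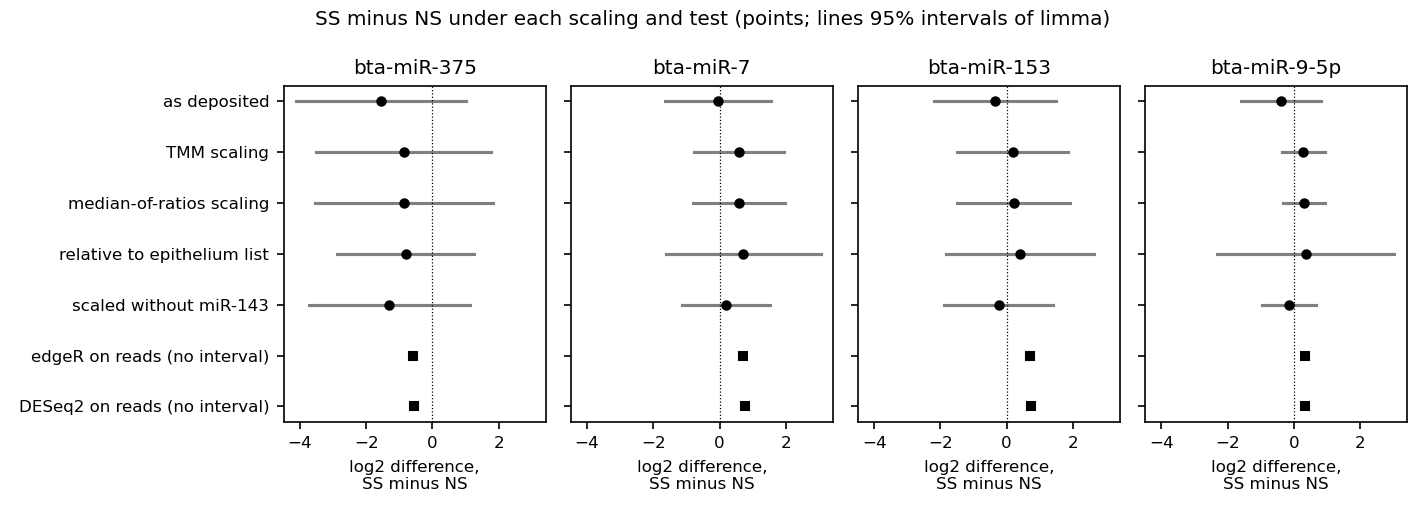
Log2 difference, SS minus NS, of each miRNA under 5 scalings in limma (circles with 95% intervals) and in 2 count tests on recovered reads (squares, with no interval drawn). All drawn intervals include 0, and bta-miR-375 lies below 0 in each row while bta-miR-7, bta-miR-153 and bta-miR-9-5p change sides.

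Other miRNAs known from endocrine cells and from the nervous system were examined beside the 4. On the endocrine list 4 of 5 miRNAs were tested, and 0 were called in either direction. The sensory and islet miRNA bta-miR-182 averaged 824 ± 751 CPM across SS (SD, n = 5) and 1014 ± 523 CPM across NS (SD, n = 4), with -1.43 (SE 1.23) as its log2 difference, near that of bta-miR-375. Its cluster partners bta-miR-183 and bta-miR-96 were at -0.44 and 0.03. The fourth, bta-miR-204, which is enriched in islet beta cells, was at -1.33 (SE 0.60, limma adjusted p = 0.297). The median of the 4 was -0.88, or -0.19 relative to the median miRNA.

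On the nervous system list, which gives miR-129 and miR-219 under several names, 9 of 15 names were found in the table. Of these 5 were tested, and 0 were called in either direction. All 5 had a negative log2 difference with the deposited values and 4 of the 5 relative to the median miRNA, with a median of -1.25, or -0.55 on the relative scale. Over all 245 the share that was negative was 88.2%, so a count of 5 of 5 was near the background. With TMM factors 4 of the 5 were negative, against 51.8% of the 245. The values were -1.64 for the neuronal bta-miR-128 (SE 0.54, unadjusted p = 0.0113, limma adjusted p = 0.297), -1.38 for bta-miR-138, -1.25 for bta-miR-338, a miRNA of oligodendrocytes in the brain, -1.12 for bta-miR-132 and -0.63 for bta-miR-218. Summed, the 5 took 811 CPM of NS steer 242 and 296 to 348 CPM of the other 3 NS libraries. In SS they took 437 CPM of steer 294 and 58.8 to 234 CPM of steers 274, 287, 299 and 310. The groups thus overlapped only through SS steer 294, the other SS libraries being below all of NS. These sums were not tested. Without NS steer 242 the median of the 5 was -1.17, and without SS steer 274 as well it was -0.71, where that of all tested was -0.38. The leukocyte list was also highest in NS steer 242 and, within SS, in steer 294 (2.04%), and its part in these values was not tested. By comparison bta-miR-9-5p was at -0.39, less negative than each of the 5. The other 4 found, bta-miR-129-3p, bta-miR-137, bta-miR-212 and bta-miR-219-5p, were under the filter, with 12 to 54 reads each over all libraries. The names bta-miR-124a and bta-miR-124b were not found in the table, so no row for miR-124, the most typical neuronal miRNA, was analysed here.

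**Figure D5:**
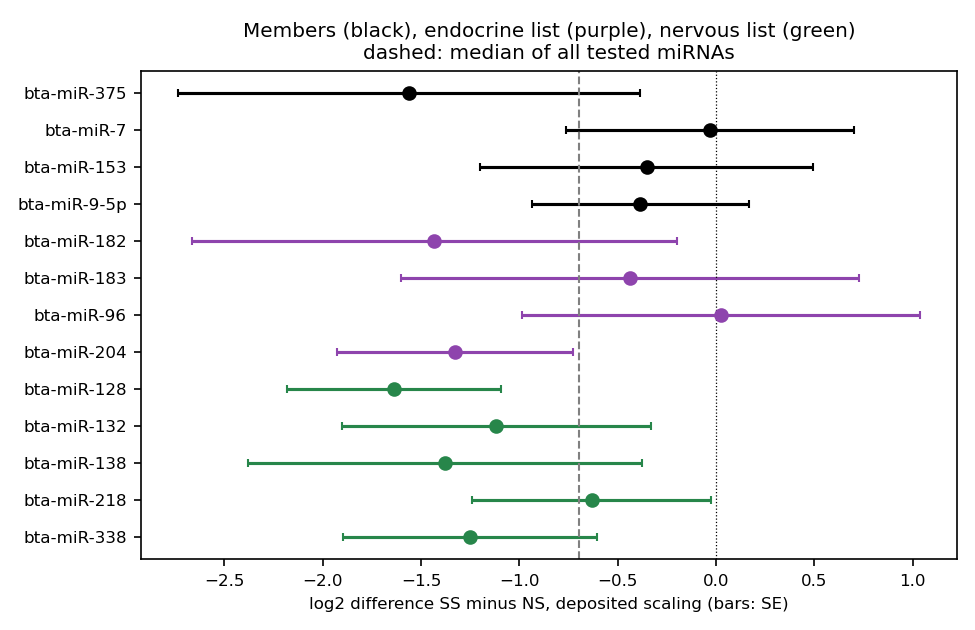
Log2 difference, SS minus NS, with its SE for the 4 miRNAs (black), the 4 tested endocrine miRNAs (purple) and the 5 tested nervous system miRNAs (green), deposited scaling, with the median of all 245 tested miRNAs (-0.70) as a dashed line. The nervous system miRNAs all lie below 0 and 4 of the 5 below the dashed line, and bta-miR-7 (-0.03) and bta-miR-96 (0.03) lie nearest to 0.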

How the data were processed

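Small RNA libraries of rectal tissue from 5 SS and 4 NS steers were prepared by the authors (TruSeq small RNA chemistry). Reads were assigned by them to miRBase sequences with the sRNA toolbox (Bowtie and edgeR per the labels, versions not given in the sources used here) and scaled to the library. The deposited values are treated as a read-based signal, called CPM in the text, because column sums were 1024945 to 1089433. Every value (100%, tolerance 1e-06 reads) was a whole multiple of the library's smallest step, from which reads and library totals were recovered. Because the columns sum to 2.49% to 8.94% more than these totals, the totals are a scale, and not a count of all reads in the rows. All 9 columns were used.

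The values were tested as log2(CPM + 1) in limma (version 3.58.1, under R 4.3.3) with a trended prior and Benjamini-Hochberg (BH) adjustment over the 245 miRNAs with at least 5 CPM in at least 4 libraries. Adding 1 before the log understates changes of low miRNAs. Count tests used edgeR 4.0.16 and DESeq2 1.42.0. The tests had been planned for CPM and were kept. Single values were tested with two-sided exact permutation tests, over 126 splits of the animals or over all pairings. The limma procedure was also run on simulated counts that held no shift common to most miRNAs, so that run says nothing about such a shift. Groups and steer numbers come from the sample titles, and each animal is a separate steer. Named miRNAs were the 4, the other arm of miR-9, the tested members of the endocrine and nervous system lists, and the 5 nearest to each of the 4. The 4 miRNAs, lists and tests were chosen with earlier results of these data known.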

Additional observations from a re-analysis of the deposited data

Results flagged for a closer look

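One library stood apart from its group. In NS steer 242, bta-miR-375 was at 1687 CPM, where NS steers 108, 152 and 165 held 10657 to 12199 CPM, and at 3.21 against 6.77 to 7.20 on the log2 scale relative to the library median. These were 2 of 20 sets of values looked at. Chance alone marks about 1 in 20 such sets, and both rest on the same reads. The epithelium list of this library took 2.36% of its reads against 6.96% to 12.3% in the other NS libraries. The leukocyte list took 4.47% there against 0.380% to 0.618%, and bta-miR-7 and bta-miR-153 were also lowest there among NS, at 11.2 and 7.81 CPM. The part of tissue composition in this was not tested.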

How the results depend on the processing

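No alternative brought any of the 4 miRNAs past the thresholds. The count of calls among all miRNAs was 0 in limma, also when each animal was left out, 1 with no filter on low values, 1 in edgeR's exact test and 9 in DESeq2. The difference of bta-miR-375 was negative in all 20 alternatives (-2.24 to -0.52), but relative to the median miRNA it ranged from -1.71 to 0.085 and turned positive without SS steer 274. That of bta-miR-7 turned positive with TMM scaling (0.58), median-of-ratios scaling (0.59), relative to the epithelium list (0.72), without bta-miR-143 in the total (0.18), with a pseudocount of 5 (0.043), and in edgeR's quasi-likelihood test (0.72), its exact test (0.72) and DESeq2 (0.76). In the same order, bta-miR-153 turned with TMM (0.19), median-of-ratios (0.21), the epithelium list (0.40), both edgeR tests (0.69 and 0.69), DESeq2 (0.74) and, chosen after seeing the data, without SS steer 274 and NS steer 242 together (0.023). For bta-miR-9-5p it turned with TMM (0.29), median-of-ratios (0.30), the epithelium list (0.37), both edgeR tests (0.35 and 0.34) and DESeq2 (0.35). The cause was not tested.

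Leaving out each animal in turn gave -0.57 to 0.39 for bta-miR-7, -1.0 to 0.22 for bta-miR-153 and -0.62 to 0.0056 for bta-miR-9-5p. With the epithelium list, r was 0.843 to 0.972 for bta-miR-375, 0.823 to 0.952 for bta-miR-153, 0.572 to 0.848 for bta-miR-7 and -0.520 to 0.457 for bta-miR-9-5p. With the smooth muscle list it was -0.477 to 0.411, -0.566 to 0.118, -0.392 to 0.292 and -0.539 to 0.593 in that order. With values as deposited, r turned for bta-miR-7 with smooth muscle (-0.366) and for bta-miR-9-5p with epithelium (0.381) and smooth muscle (-0.597). No paired analysis was possible because the groups share no steer number. Low read numbers limit bta-miR-153 most, with 5 to 168 reads per library.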
